A study of Mus musculus with 1111 samples.

Results

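Receptors that could bring plasma protein into microglia were examined in single brain cells sorted by how much labelled plasma they held. The set was a given list of 9 candidate receptor genes and partners, out of 35583 genes in the tables: Lrp1, Lrpap1, Msr1, Cd36, Scarb1, Scarb2, Tfrc, Colec12 and Dab2. All 9 were found by symbol. The cells came from mice aged 3 months, taken 20 hours after plasma proteins tagged with the dye NHS-Atto647N had been injected. Every group shared that injection, and sorting made 3 groups, plasma none (no signal), plasma low and plasma high, called none, low and high from here on. Strain, sex, the number of animals and the animal behind each cell are not stated. Each title carries a TH number from 1 to 3 of unstated meaning, so a group counted as 1 sample of cells, no test between groups was made, and each ± is an SD over the 3 TH numbers (n = 3), a spread between sets of wells and not between animals. The cells of the none group sat in plate columns 1 to 8, those of the low group in 9 to 16 and those of the high group in 17 to 23, so group and plate position cannot be told apart.

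Endocytic receptors bind a ligand at the cell surface, gather in clathrin-coated pits through adaptors that read short motifs in their tails, and release the ligand in acidic endosomes. The LDL receptor family takes up lipoproteins and protease complexes, scavenger receptors bind modified lipoproteins and other polyanionic ligands, and the transferrin receptor carries iron-loaded transferrin in and returns to the surface. Microglia, the resident macrophages of the brain, are known for receptor-mediated uptake, and several of these receptors are better known from macrophages elsewhere, from liver or from endothelium.

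After filtering, 987 of 1045 matched cells remained, 35.1% of them in the none group, 35.6% in low and 29.4% (290 cells) in high. Reads per sum of group and TH number ran from 21309816 to 49323522, and median reads per cell from 175699 to 404743. The labelled cell type held against its markers: in all 987 cells at least 3 of 8 microglia markers had a read, and their summed level was 45387 to 54371 CPM (a gene's reads relative to all reads in genes) in every sum. No cell had 3 markers of any of 9 other cell type lists. Summed levels of these 9 lists reached at most 71.3 CPM, for oligodendrocytes in the high group, and were 0 for neutrophils and lymphocytes in every sum. Of the border-associated macrophage markers, Cd163, Lyve1, Pf4, F13a1 and Ms4a7 were at 0 in every group and the summed list ran from 0.217 to 1.34 CPM in the none group, 2.64 to 22.2 in the low group and 0 to 4.5 in the high group.

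The 9 genes split into a broadly detected set of 4 and a scarce set of 5. A read of Lrp1 was found in 609 of the 987 cells (61.7%, exact 95% interval 58.6 to 64.7), of Lrpap1 in 38.8% of cells (35.8 to 41.9), of Scarb2 in 37.2% (34.2 to 40.3) and of Scarb1 in 11.1% (9.25 to 13.3). Dab2 was read in 37 cells (3.75%), Tfrc in 17 (1.72%), Msr1 in 8 (0.811%) and Cd36 in 2 (0.203%). Colec12 had no read in any of the 987 cells, which allows a share of up to 0.304%, as 3 counts of the total. The upper end of the exact 95% interval was 0.373%. No cell type known to lack these genes was sequenced, so the share that stray RNA alone would give was not measured.

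Per kilobase of exon the order differed from the order of cells with a read. Lrpap1 stood at 51.3 CPM per kb (40.6 to 60.9 over the 9 sums), above Scarb2 at 34.1 (23.8 to 40.3), and these ranges did not overlap. Lrp1 followed at 11.2 (8.2 to 14.5), clear of Scarb2. Scarb1 at 6.56 (4.48 to 8.3) overlapped Lrp1 at the edge of the ranges. Then came Tfrc at 2.03, Dab2 at 1.56, Msr1 at 0.229 and Cd36 at 0.0322 CPM per kb, whose ranges all overlapped, that of Tfrc reaching 11.5 and so into the ranges of Lrp1 and Scarb1. Lrp1, with 17.72 kb of exon, was the most often detected member, yet per length the chaperone Lrpap1, with 4.12 kb, was higher in every sum. Among 17996 genes with a read, Lrpap1 lay above 95.2% and Scarb2 above 92.3% in level per kb, Lrp1 above 77.8% and Scarb1 above 67.7%, while Msr1 lay above 21.1% and Cd36 above 9.88%.

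**Figure D1:**
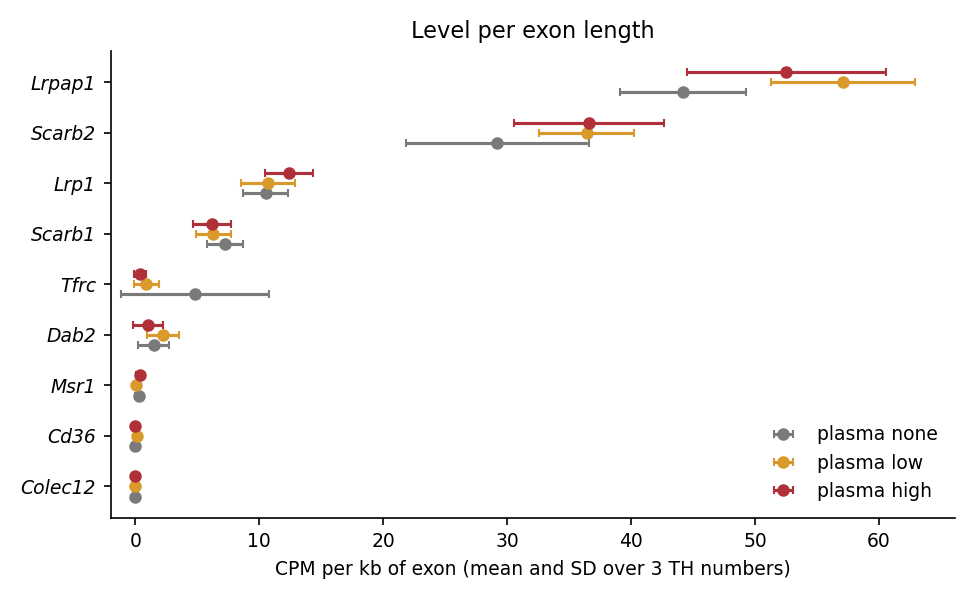
Level of each gene in CPM per kb of exon (x axis) for the 3 plasma groups, as the mean over 3 TH numbers with SD bars. Lrpap1 and Scarb2 stand apart at the top of the scale, Lrp1 and Scarb1 are lower, and the other 5 genes lie near 0, with a wide bar for Tfrc in the none group.

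Promoters are shown for 4 members that span this range, the highest per length, the most often detected, and 2 scarce ones, so that their CG content can be set beside their reads. Each run holds 250 bases before and 50 after a transcript start from RefSeq (GRCm38.p6), 5′ to 3′ on the gene's strand, with CG pairs in capitals.
Lrpap1 (chr5:35105650-35105949, - strand): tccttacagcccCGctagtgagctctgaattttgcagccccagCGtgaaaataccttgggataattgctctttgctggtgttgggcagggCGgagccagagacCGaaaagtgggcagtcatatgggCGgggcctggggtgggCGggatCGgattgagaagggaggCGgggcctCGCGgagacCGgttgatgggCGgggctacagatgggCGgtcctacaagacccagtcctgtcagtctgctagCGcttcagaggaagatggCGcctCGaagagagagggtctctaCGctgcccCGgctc
Lrp1 (chr10:127621099-127621398, - strand): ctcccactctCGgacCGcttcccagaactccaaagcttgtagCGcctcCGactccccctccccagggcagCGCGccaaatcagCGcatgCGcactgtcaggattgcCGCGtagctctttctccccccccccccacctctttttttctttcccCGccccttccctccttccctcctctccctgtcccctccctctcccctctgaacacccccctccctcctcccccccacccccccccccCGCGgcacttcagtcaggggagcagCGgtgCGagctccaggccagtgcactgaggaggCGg
Tfrc (chr16:32608646-32608945, + strand): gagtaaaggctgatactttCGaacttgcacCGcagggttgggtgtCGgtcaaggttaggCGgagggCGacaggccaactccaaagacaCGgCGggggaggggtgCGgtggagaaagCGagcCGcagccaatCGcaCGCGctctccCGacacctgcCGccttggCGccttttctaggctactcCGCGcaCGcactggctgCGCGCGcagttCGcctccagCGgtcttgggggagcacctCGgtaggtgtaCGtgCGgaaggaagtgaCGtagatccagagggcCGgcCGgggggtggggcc
Cd36 (chr5:17835847-17836146, - strand): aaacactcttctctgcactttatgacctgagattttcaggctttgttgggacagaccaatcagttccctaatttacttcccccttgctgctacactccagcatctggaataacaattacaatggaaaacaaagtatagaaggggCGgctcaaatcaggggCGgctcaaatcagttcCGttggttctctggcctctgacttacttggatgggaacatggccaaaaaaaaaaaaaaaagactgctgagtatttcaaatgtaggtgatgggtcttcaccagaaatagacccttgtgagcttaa
The Lrpap1 window held 18 CG pairs, the Lrp1 window 16, the Tfrc window 30 and the Cd36 window 3, against a median of 7 over 32851 promoters of the same length. Scarb2, not printed, held 28, and Dab2 had 2 windows with 2 and 19. A further Tfrc window, not printed and overlapping the one shown, also held 30. CG content therefore did not order the members by level: Tfrc, with the most CG pairs, was read in 1.72% of cells. The letters GAGGAAGT, searched on both strands as a form of the PU.1 binding motif, were in none of the 8 windows of the 6 matched members and in 3.2% of all promoters.

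Lrp1 (chromosome 10, 127538161 to 127621148, minus strand, GRCm38) encodes a very large endocytic receptor of the LDL receptor family that binds apolipoprotein E and protease inhibitor complexes, among many ligands. In the none group its level was 182.9, 221.3 and 156.1 CPM in TH 1, 2 and 3 (mean 186.7 ± 32.8, SD, n = 3), in the low group 145.2, 210.6 and 212.9 (189.6 ± 38.4), and in the high group 209.9, 256.2 and 190.4 (218.8 ± 33.8). The 3 groups overlapped, though within each TH number the high group was above the none group. For high against none the log2 ratio was 0.20, 0.21 and 0.29 (mean 0.23 ± 0.05), for low against none −0.33, −0.07 and 0.45 (0.01 ± 0.39). In high against low the ratio was 0.53, 0.28 and −0.16. The small difference between the high group and the none group was not there when cells were weighted equally (−0.02) or thinned to equal depth (−0.04). Both settings give each cell the same weight. An annotated gene on the opposite strand, Gm16217, overlaps Lrp1, and reads of both cannot be told apart without strand.

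The share of cells with an Lrp1 read was 58.7% in the none group (exact 95% interval 53.3 to 63.9), 63.8% in the low group (58.5 to 68.9) and 62.8% in the high group (56.9 to 68.3). At an equal 50000 reads per cell it was 52.6%, 58.1% and 57.2%. These intervals overlapped, and at equal depth the high group lay above the none group by 12.9 and 3.53 percentage points in TH 1 and TH 3 and below it in TH 2 (−3.36 points). Detection moved with depth over all cells, from 55.5% in the fourth of cells with the fewest reads to 68% in the fourth of cells with the most. In cells with a read the median level was 240.1 CPM in the none group, 224.5 in the low group and 228.9 in the high group.

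Lrpap1 (chromosome 5, 35091501 to 35105766, minus strand) encodes the receptor-associated protein, a chaperone of the endoplasmic reticulum that keeps Lrp1 and its relatives from binding ligands too early. Its level was 173.1, 206.04 and 167.04 CPM in the none group (182.1 ± 21), 250.5, 247.3 and 207.6 in the low group (235.1 ± 23.9), and 212.1, 250.8 and 185.1 in the high group (216.02 ± 33). Every low-group value was above every none-group value, while the high group overlapped both. For low against none the log2 ratio was 0.53, 0.26 and 0.31 (0.37 ± 0.14), and for high against none 0.29, 0.28 and 0.15 (0.24 ± 0.08).

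For Lrpap1 the 2 readouts of the same cells moved in different ways. The share of cells with a read at equal depth was 36.2%, 31.9% and 31.6% in the none group and 47.5%, 39.3% and 37.9% in the low group, higher by 8.34 ± 2.59 points. In the high group it was 39.6%, 42.7% and 33.3%, above the none group by 5.32 ± 4.86 points. More cells of the low group thus had a read in each TH number. Where a read was present, the median level was lower, at 454 CPM in the low group and 488 in the high group against 572 in the none group. With all cells weighted equally the log2 ratio was 0.10 for low against none and −0.07 for high against none, so the difference in summed reads was smaller or of the other sign by that measure.

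**Figure D2:**
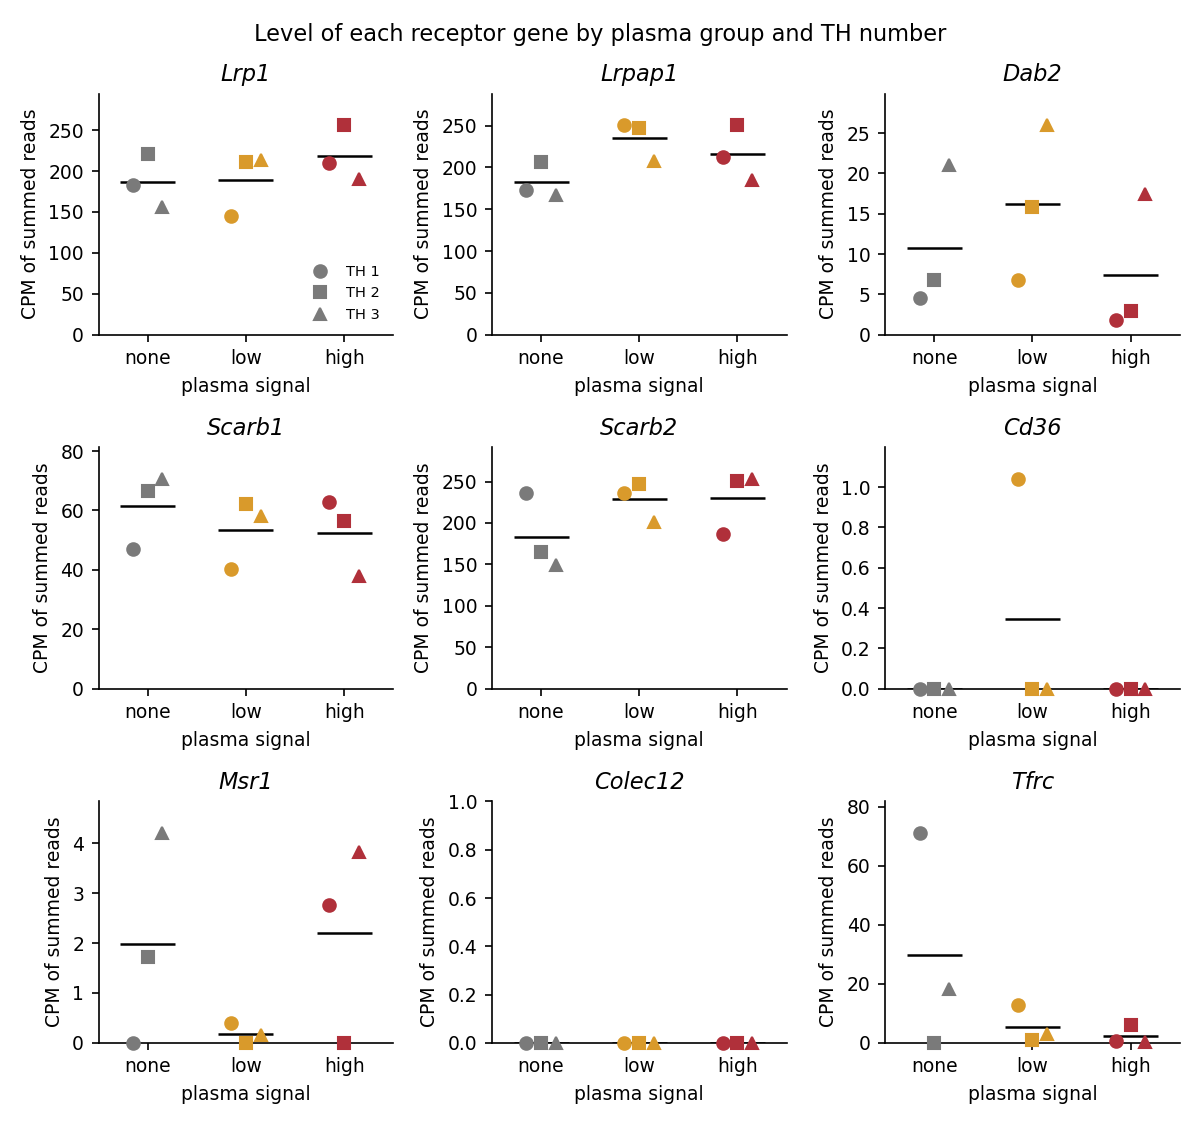
CPM of summed reads for each of the 9 genes, with 1 panel per gene, linear axes from 0 that differ between panels, symbols for TH 1 (circle), TH 2 (square) and TH 3 (triangle) and a line at the mean. Lrpap1 in the low group lies above the none group without overlap (207.6 to 250.5 against 167.04 to 206.04 CPM), and the Tfrc panel is set by 1 sum at 71.1 CPM.

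Dab2 (chromosome 15, 6299788 to 6440712, plus strand) encodes a clathrin adaptor that binds the tails of LDL receptor family members. Its levels were 4.52, 6.81 and 21 CPM in the none group, 6.83, 15.8 and 26 in the low group, and 1.85, 2.95 and 17.4 in the high group. In each TH number the low group was highest and the high group lowest, with log2 ratios of high against low of −1.46, −2.09 and −0.56 (mean −1.37 ± 0.77), while TH 3 was the highest in every group. These levels came from few cells: 12 in the none group (3.47%), 13 in the low group (3.7%) and 12 of 290 in the high group (4.14%), shares that overlapped widely. In the low group 1 cell gave 39.4% of the Dab2 reads, and the gene was under the minimum of 20 CPM and 10% of cells. An opposite-strand gene, Gm16311, overlaps it.

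The cells with Dab2 reads carried microglia markers, at least 3 of 8 in all 37. A border-associated macrophage marker had a read in 3 of these 37 cells and none had 3 such markers. In the cell with the most Dab2 reads, 631 in the low group of TH 2, there were also reads of Mrc1, the mannose receptor, and the next cell, at 1110 CPM of Dab2, held 580 reads of Mrc1. The part of such cells in the group differences was not tested.

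Scarb1 (chromosome 5, 125277087 to 125341094, minus strand) encodes the class B scavenger receptor best known for selective uptake of cholesterol esters from HDL. Its level was 47, 66.7 and 70.6 CPM in the none group (61.4 ± 12.7), 40.2, 62.3 and 58.1 in the low group (53.5 ± 11.7), and 62.8, 56.5 and 38 in the high group (52.5 ± 12.9). The groups overlapped throughout. Against the none group, the low group was lower in each TH number (−0.22, −0.10 and −0.28, mean −0.20 ± 0.09), a difference of −0.03 once the cell with the most reads of the gene was left out. For high against none the 3 ratios ran from 0.41 to −0.87 (mean −0.23 ± 0.64), a spread larger than the difference. The share of cells with a read was 11.6% in the none group, 10.3% in the low group and 11.7% in the high group. The gene shares its strand with the overlapping gene Gm42633.

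Scarb2 (chromosome 5, 92441314 to 92506833, minus strand) encodes a lysosomal membrane protein of the same family that carries glucocerebrosidase to lysosomes. Levels were 236.4, 165.3 and 149.5 CPM in the none group (183.7 ± 46.3), 236.5, 247.5 and 201.7 in the low group (228.6 ± 23.9), and 186.4, 251.2 and 253.1 in the high group (230.2 ± 38). In TH 2 and TH 3 both groups with plasma signal were above the none group, and in TH 1 the low group equalled it and the high group was below. The log2 ratio was 0.00, 0.58 and 0.43 for low against none (0.34 ± 0.30) and −0.34, 0.60 and 0.76 for high against none (0.34 ± 0.59). Leaving out 1 TH number, the second of these was 0.68 without TH 1, 0.21 without TH 2 and 0.13 without TH 3, and with cells weighted equally it was 0.31.

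A Scarb2 read at equal depth was found in 35.3%, 27.4% and 26.5% of none-group cells, 39%, 32.5% and 31.9% of low-group cells and 37.6%, 35.4% and 38.7% of high-group cells. The share was thus above the none group in each TH number, by 4.69 ± 0.932 points in the low group and 7.49 ± 4.99 in the high group. Over all TH numbers the unthinned share was 34.1% (exact 95% interval 29.1 to 39.4), 37.9% (32.8 to 43.2) and 40% (34.3 to 45.9), with intervals that overlapped. In cells with a read the median level was 316.4 CPM in the none group, 485 in the low group and 476 in the high group, the opposite order to Lrpap1. In TH 1 alone the Scarb2 median of the low group, 362.7 CPM, was under that of the none group, 379.3.

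**Figure D3:**
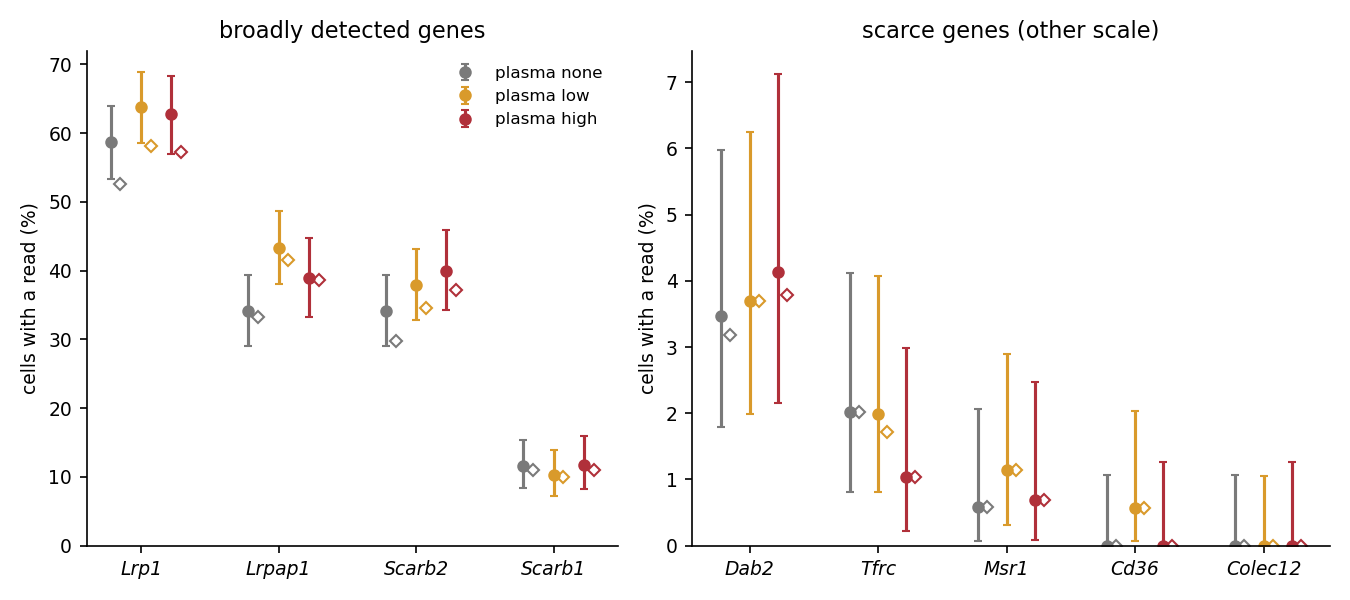
Percent of cells with a read of each gene in the none group (grey), the low group (orange) and the high group (red), as filled points with exact 95% intervals. Open diamonds give the share after thinning each cell to 50000 reads, and the right panel has a scale of its own. Lrpap1 and Scarb2 lie higher in both groups with plasma signal, with intervals that overlap those of the none group.

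**Figure D4:**
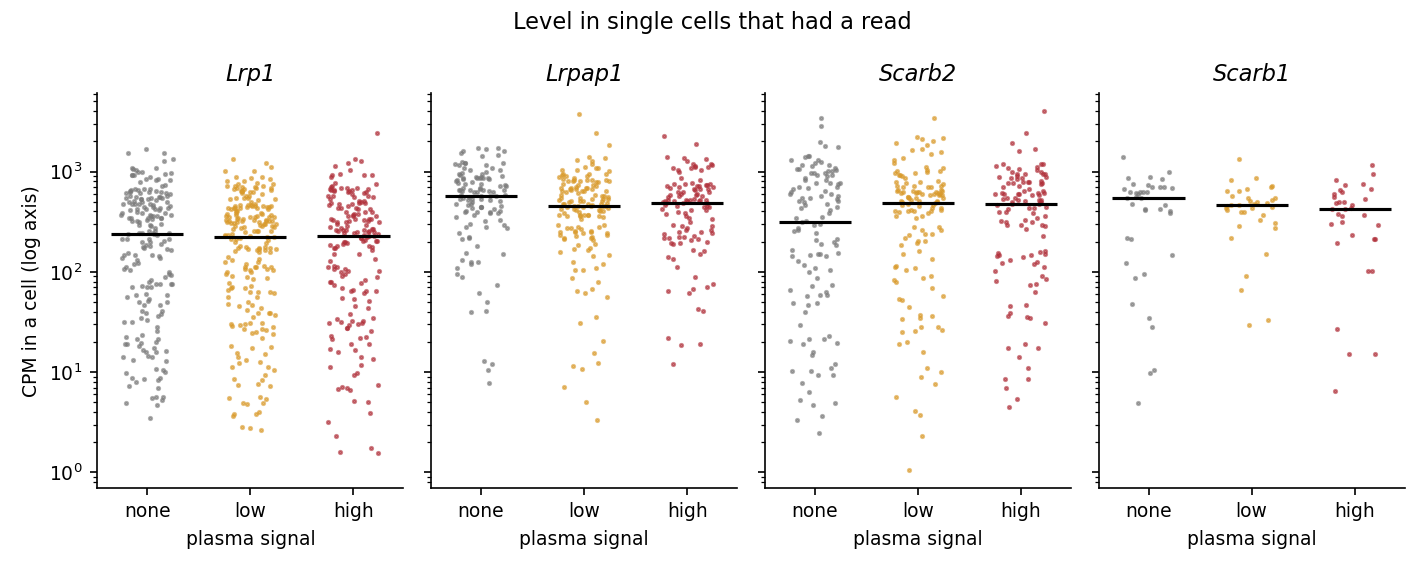
CPM in single cells that had a read of the gene (log axis), each dot being 1 cell, with a line at the median of each plasma group. The medians of Lrpap1 are 572, 454 and 488 CPM and those of Scarb2 are 316.4, 485 and 476 CPM in the groups none, low and high.

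Msr1 (chromosome 8, 39581685 to 39642673, minus strand) encodes the class A macrophage scavenger receptor for modified LDL. It was read in 2 cells of the none group (0.578%), 4 of the low group (1.14%) and 2 of the high group (0.69%). The sums were 0, 1.73 and 4.21 CPM, then 0.4, 0 and 0.153, then 2.77, 0 and 3.83. The 4 cells of the low group together held 14 reads, and the pooled level was 0.142 CPM there against 2.13 in the none group and 1.78 in the high group, so number of cells and level did not go together. All 8 cells had 3 or more microglia markers, and the second highest, with 93 Msr1 reads, also had 56 of Mrc1.

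Cd36 (chromosome 5, 17781690 to 17888801, minus strand) encodes a class B receptor for oxidised LDL and fatty acids. It was read in 2 cells, both in the low group of TH 1, with 15 and 11 reads, and 1 of these was also among the cells with Msr1 reads. The none and high groups had no Cd36 read. As 3 counts of the total, this allows a share of up to 0.867% of cells in the first and 1.03% in the second. The upper ends of the exact 95% intervals were 1.06% and 1.26%. Colec12, a collectin-type scavenger receptor known from vascular cells, had no read in any group. With so few cells holding a read, or none, a difference between groups could not be assessed for these genes.

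Tfrc (chromosome 16, 32608920 to 32632794, plus strand) encodes the transferrin receptor that supplies cells with iron. Its sums were 71.1, 0 and 18.3 CPM in the none group, 12.8, 0.846 and 2.91 in the low group, and 0.596, 5.93 and 0.431 in the high group. The means were 29.8, 5.53 and 2.32 CPM, and 1 cell of the none group in TH 1 held 1447 Tfrc reads, 52.2% of all reads of the gene. That cell, at 5728 CPM of Tfrc, had all 8 microglia markers and also reads of Mbp and Ccr2. By number of cells the groups were close, with 7 in none (2.02%, exact 95% interval 0.817 to 4.12), 7 in low (1.99%, 0.805 to 4.07) and 3 in high (1.03%, 0.214 to 2.99).

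The minimum level and detection were passed in each comparison by 4 of the 9 members, Lrp1, Lrpap1, Scarb1 and Scarb2. A log2 ratio of 1 or more in size with 1 sign in all TH numbers was met by 0 of the 4 in high against none, where 5.15% of 5534 genes met it. It was met by 0 of 4 in low against none (2.64% of 5489 genes) and by 0 of 4 in high against low (3.28% of 5709 genes). The ratios of the 4 members were between −0.23 and 0.37 in all 3 comparisons, which share groups and are not independent. Among all genes tested the median size of the ratio was 0.322, 0.27 and 0.265 and the median SD over TH numbers 0.562, 0.511 and 0.535. The ratio of every one of the 4 members was smaller than these SDs of all genes. Against the members' own SDs some ratios were larger, as for Lrp1 in high against none (0.23 ± 0.05). Others were smaller, as for Scarb2 in the same comparison (0.34 ± 0.59).

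By sign alone, in high against none Lrp1 and Lrpap1 were higher in 3 of 3 TH numbers (2 of 4, where 18.8% of genes were) and 0 of 4 were lower in all (13.8% of genes). In low against none Lrpap1 and Scarb2 were higher in all (2 of 4, against 16.7% of genes) and Scarb1 lower (1 of 4, against 11.8%). Scarb2 is in that count through a difference of 236.48 against 236.36 CPM in TH 1. High against low had 0 of 4 members higher (14.1% of genes) and 0 of 4 lower (13.1%). Groups did not overlap for 0 of 4 members in high against none (13.9% of genes), for Lrpap1 alone in low against none (1 of 4, against 9.55%) and for 0 of 4 in high against low (9.67%). Only 4 genes were tested, so these counts are given as a description.

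At equal depth the share of cells with a read was higher in all TH numbers for Lrpap1 and Scarb2 in high against none (2 of 4, where 35.6% of genes were) and again in low against none (2 of 4, where 39.7% were). In high against low it was so for 0 of 4 members (12% of genes). A large part of all genes tested thus had more positive cells in each group with plasma signal, and the shares of Lrpap1 and Scarb2 moved as those of many genes did. Medians of the log2 ratio were taken over members with a mean of 5 CPM or more, with the SD of the medians within TH numbers. In high against none the median was 0.0 ± 0.18 (6 members, all genes 0.028). It was 0.18 ± 0.28 in low against none (6 members, all genes 0.03) and −0.03 ± 0.13 in high against low (5 members, all genes −0.01).

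**Figure D5:**
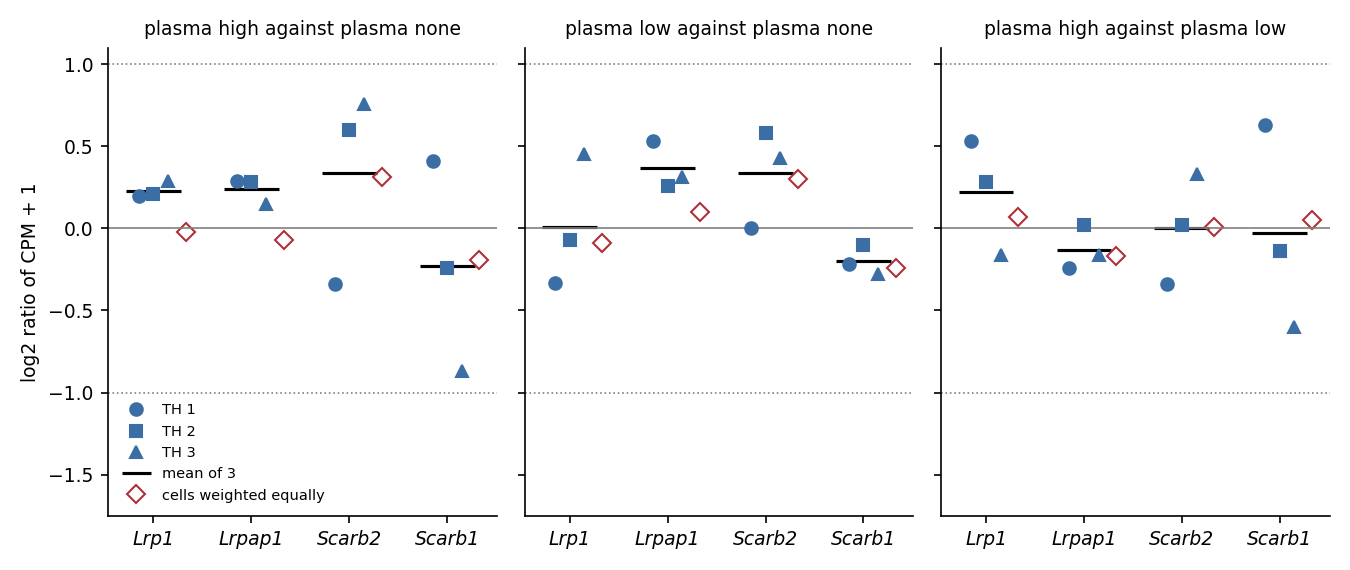
Log2 ratio of CPM + 1 for Lrp1, Lrpap1, Scarb2 and Scarb1 in the 3 comparisons, with blue symbols for TH 1, 2 and 3, a black line at their mean and an open red diamond for the ratio with cells weighted equally. Dotted lines mark −1 and 1, which no point reaches, and the diamonds of Lrp1 (−0.02) and Lrpap1 (−0.07) in high against none lie at or under 0.

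Most single cells held few of the broadly detected genes together. At equal depth 20.8% of cells of the none group (72 cells) had no read of any of the 4, against 15.1% of the low group (53 cells) and 15.2% of the high group (44 cells). Cells with 3 of the 4 made up 8.09%, 13.1% and 12.1%, and cells with all 4 numbered 2, 1 and 3. Median genes per cell were likewise lower in the none group, at 1631 to 1729.5 over TH numbers against 1768 to 2213 in the low group and 1882.5 to 2045 in the high group, and the part of this in the members' shares was not tested.

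Other genes of the LDL receptor family, listed together with the sortilins Sort1, Sorcs1 and Sorcs2, were mostly at low levels. Of 16 listed, 5 had no read in any sum, Sorcs1 and Sorcs2 among them. In high against none 3 passed the minimum, including Sort1, and 1 of these 3 met the size rule (5.15% of all genes tested). That gene, Lrp6, a Wnt co-receptor, was at 18.1, 24.7 and 27.6 CPM in the none group and 38.3, 78.4 and 55.5 in the high group (log2 ratio 1.22 ± 0.35), without overlap. Leaving out the cell with the most Lrp6 reads moved the ratio to 0.46, and equal weights per cell to 0.67. In the low group Lrp6 was at 25.2, 4.27 and 12.6 CPM, and it met the size rule in high against low as well (3.28% of genes). The ratios there were 0.58, 3.91 and 2.05 (2.18 ± 1.67), with TH 2 the largest. In the high group 1 cell gave 39.2% of the Lrp6 reads. The largest fall was that of Lrp4, an agrin co-receptor, at −1.13 ± 1.86 with both signs among TH numbers. Lrp4 was at 35.7, 49.4 and 55.1 CPM in the low group against 28.4, 17.8 and 0.474 in the high group, and met the size rule there (−2.33 ± 2.59), with a ratio of −0.87 without TH 3.

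Among 19 other scavenger receptors, 18 were found, 5 had no read and 5 passed the minimum, of which 2 were higher in 3 of 3 TH numbers in high against none (18.8% of all genes tested). Cxcl16, a transmembrane chemokine that also binds oxidised LDL, met the size rule (1 of 5, against 5.15% of genes), with 75.3, 27 and 81.3 CPM in the none group and 105.9, 174.5 and 93.8 in the high group (1.11 ± 1.34). The groups did not overlap, but TH 2 carried the ratio, which was 0.35 without it. The other, named after its values were seen, was Cd68, a lysosomal glycoprotein of macrophages (0.20 ± 0.10). Mrc2, a collagen-binding endocytic receptor, had the largest fall, −0.25 ± 1.01 with both signs. The median of the list of LDL receptor family genes and sortilins was 0.01, with 1.0, 0.23 and −0.25 in TH 1, 2 and 3. That of the other scavenger receptors was −0.10, with 0.27, 0.15 and −0.37. Over all genes it was 0.028.

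In the transferrin receptor cycle 8 of 13 genes passed the minimum, of which 0 met the size rule and 4 were higher in 3 of 3 TH numbers in high against none, all 4 without overlap of the groups (18.8% of all genes tested were higher and 13.9% did not overlap). These 4, named after their values were seen, were the ferritin subunits Fth1 and Ftl1, the ferritin cargo receptor Ncoa4, and Trf, transferrin itself. Fth1 was at 1551, 1304 and 984 CPM in the none group and 2246, 1746 and 1570 in the high group (0.54 ± 0.13), and with equal weights per cell at 0.59. Ftl1 was at 774, 649 and 674 CPM in the none group and 993, 1034 and 808 in the high group (0.43 ± 0.21). Trf was at 1587, 1810 and 1566 against 1896, 2476 and 1883 CPM (0.32 ± 0.11). Oligodendrocytes also express Trf, and their 4 markers summed to 8.89 to 29.3 CPM in the none group and 21.9 to 71.3 in the high group, with Mog and Cldn11 at 0 in both, and no cell had 3 of the 4. The part of this in the Trf difference was not tested. Ncoa4 was at 18.3, 15.4 and 13.5 against 28.6, 21.5 and 36.8 CPM (0.82 ± 0.50). Transferrin and ferritin genes were thus read in most cells (Trf in 86.7% to 98% and Fth1 in 94.7% to 100% over the 9 sums), while the transferrin receptor gene was read in 1.72%. The largest rise and fall by the naming rule were Ireb2, an iron regulatory protein (1.2 ± 3.03), and Hfe, a partner of the transferrin receptor (−0.10 ± 0.72), both with mixed signs. The list's median was 0.36, with 0.36, 0.57 and 0.08 in TH 1, 2 and 3.

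Adaptors of receptor tails numbered 17, of which 9 passed the minimum in high against none. Of these, 0 met the size rule, 2 were higher and 3 lower in 3 of 3 TH numbers (18.8% and 13.8% of all genes tested). The median of this list was 0.25, with 0.42, 0.17 and −0.25 in TH 1, 2 and 3. Mylip, a ubiquitin ligase that acts on lipoprotein receptors, was lower, at 1182, 1259 and 1149 CPM in the none group against 589, 766 and 759 in the high group (−0.77 ± 0.21), without overlap. With cells weighted equally its ratio was −0.55. Numb, a clathrin adaptor, was higher at 257.7, 215.7 and 220.1 CPM against 154.8, 120.5 and 190.7 (0.59 ± 0.34), a difference of 0.04 with equal weights per cell. The others, named after their values were seen, were Snx27, an endosomal sorting protein, among the higher (0.59 ± 0.32), and the clathrin-pit proteins Picalm (−0.53 ± 0.34) and Eps15 (−0.33 ± 0.11) among the lower. In low against none Eps15 met the size rule (1 of 9, against 2.64% of genes), at −0.92, −0.23 and −2.23 (−1.12 ± 1.01). Mylip was read in a similar share of cells in both groups, 61.9% to 70.1% in the none group and 58.3% to 71.3% in the high group.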

How the data were processed

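Single microglia were profiled by Smart-seq2, 1 library per sorted cell. The deposited values are raw counts of reads per gene and cell, and 1 deposited column was read as an expected count because 2 of its values were not whole, and was rounded. Per the submitters' processing notes the tools included bcl2fastq, Trim Galore, STAR 2.5.3a and Seurat with the mm10 build. What each did, how reads were counted and whether strand was used are not given in the sources used here. Per the file headers, columns of TH 2 and TH 3 came from alignments limited to top hits, and those of TH 1 carry no such note.

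Cells with 50000 or more reads and 500 or more detected genes were kept, and their reads were summed by group and TH number (9 sums). CPM used TMM factors (R 4.3.3, edgeR 4.0.16), and ratios are on the log2(CPM + 1) scale, taken within a TH number and averaged. The size rule asks for a log2 ratio of 1 or more in size, 1 sign in 3 TH numbers, a mean of 20 CPM and detection in 10% of the cells of either group. List medians use genes with a mean of 5 CPM or more. Intervals on shares are exact Clopper-Pearson intervals at 95%, those on levels exact Poisson intervals, and both cover counting error only, since reads without molecular identifiers are not independent molecules. Cells were thinned at random to 50000 reads for shares at equal depth. Wells held single sorted cells. Doublets were not called and cells were not clustered. Exon lengths are merged exons of GENCODE M21 (GRCm38), in which 35546 of 35583 gene IDs were found. Promoters are from RefSeq (GRCm38.p6).

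All 9 members are described. From each of 4 further lists the genes with the largest rise and fall between plasma high and plasma none are named, among those with a mean of 20 CPM. For each member at that level the 2 most similar genes over the 9 sums are named, except 1 that is not reported here. The members and all lists were chosen with earlier results of these data known. Scaling by library size and by DESeq2 1.42.0 size factors, pseudocounts of 0.1 and 5 CPM, no filter, other cell filters, equal weights per cell, each TH number left out and ratios without the TH pairing were tried as alternatives. Reads of 66 labelled cells are not analysed here.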

Additional observations from a re-analysis of the deposited data

How the results depend on the processing

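Over all alternatives, 10 ratios of single members moved by more than 1 SD, of which 8 were among 180 for the 4 broadly detected members. In high against none, the count of members with 1 sign in all TH numbers went from 2 to 0 both after thinning and with equal weights per cell, where Lrp1 was −0.04 and −0.02 and Lrpap1 −0.02 and −0.07. Thinning also gives each cell the same weight, so these 2 settings are not separate checks. Leaving out 1 TH number, the count in high against none was 2 to 4, with 4 without TH 1. In high against low the count was 1 to 2 instead of 0. Agreement of sign over 2 TH numbers is an easier rule than over 3, and the share of all genes meeting it is not given here. With no filter on low values, high against low had 1 member past the size rule and 1 with 1 sign, Dab2 in both cases. The share of all genes under that setting is not given here either. The median of the members in high against none went from 0.0 to 0.19 without the top cell of each gene. The TH numbers pair the groups by label only. Without this pairing, as ratios of means with no block, the ratio of high to none was 0.23 for Lrp1, 0.25 for Lrpap1, −0.22 for Scarb1 and 0.32 for Scarb2. The cause of these shifts was not tested. For the 5 scarce genes the number of cells sets a limit, given as 3 counts of the total. No read in a whole group allows a share of up to 0.867% in none, 0.855% in low and 1.03% in high. The upper ends of the exact 95% intervals are 1.06%, 1.05% and 1.26%.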

Other observations

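The genes closest in pattern to each broadly detected member were read as a description over the 9 sums, which share TH numbers and scaling, among 6498 genes. For Lrp1 H2-K1 was among them (Pearson r = 0.92), for Lrpap1 they were Strap (0.922) and Cox5b (0.916), for Scarb1 Spg11 (0.932) and Zfp113 (0.929), and for Scarb2 Commd8 (0.958) and Atg101 (0.937). Among the members, the correlation over the same sums ran from −0.71 for Scarb1 with Scarb2 to 0.47 for Lrpap1 with Scarb2, and that of Lrp1 with its chaperone Lrpap1 was 0.33. Across the 987 cells at equal depth, 37.5% of the 552 cells with an Lrp1 read also had one of Lrpap1, beside 37.8% of all cells (Spearman's rho −0.025). For Scarb2, 34.8% of the cells with Lrp1 had a read, beside 33.6% of all cells.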
